A study of Mus musculus with 12 samples.

Results

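The genes described here build cholesterol and fatty acids and sense sterols, and most of them are switched on by SREBP transcription factors. They were taken from a list of 29 mouse genes: 8 enzymes from acetyl-CoA to squalene, 10 enzymes from squalene to cholesterol, 5 regulators of SREBP, the sterol carrier Stard4 and 5 enzymes of fatty acid synthesis. Of the 29, 28 matched a row among the 36439 genes counted, and all 28 had enough reads to be tested in both comparisons. Hmgcs1, which makes HMG-CoA, was not matched to a row and is not analysed here.

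SREBP proteins are made as membrane precursors in the endoplasmic reticulum. When sterols are scarce, the escort protein Scap carries the precursor to the Golgi, where proteases free a fragment that enters the nucleus and turns on the genes of sterol and fatty acid synthesis. When sterols are plentiful, the Insig proteins hold Scap back. In macrophages this pathway works against the liver X receptors (LXR), which sense oxidised sterols, switch on cholesterol export and also raise Srebf1 and some enzymes of fatty acid synthesis.

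RNA sequencing covered 12 libraries, in 4 groups of 3, of macrophages taken from inside a solid tumour, known as tumour-associated macrophages (TAMs). The tumours were Lewis lung carcinomas, a transplantable lung cancer of C57BL/6 mice, growing under the skin. All groups were selected for F4/80, which marks mature macrophages of the mouse. One pair of groups was sorted on a further surface protein, MRC1 (a mannose receptor) in one group and CD11c (an integrin) in the other. The other pair was F4/80+ TAMs that overexpressed the microRNA miR-511-3p or a mutated miR-511-3p, with no sort on MRC1 or CD11c named in the labels. The names of these libraries carry SFFV, the usual short form for a viral promoter that is active in most blood cells. How the construct was delivered, what the mutation is, or whether the numbered libraries are separate mice or pools is stated in no source used here. Every p-value therefore sets a difference only against the spread between these libraries, which may not be the spread between mice.

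A microRNA binds messages through its seed, and the mature miR-511-3p of mouse (RefSeq, GRCm38.p6) is shown with the seed, bases 2 to 8, in capitals, because the overexpression comparison turns on it:
miR-511-3p: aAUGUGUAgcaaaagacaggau
The longest 3′ UTR of each gene in GENCODE M21 was searched for TACACAT, the match to bases 2 to 8, and for ACACATA, the match to bases 2 to 7 followed by A. Of the 28 genes, 5 held at least 1 such site, which is 17.9%, beside 19.9% of the 11901 tested genes that have an annotated 3′ UTR. The sites of 4 of them are printed with 8 bases on either side and the match in capitals, and the position is that of the first capital in the 3′ UTR:
Lss, from base 826: aacatctaTACACATAaaataaat
Acaca, from base 182: gcccagtcACACATAcccgattc
Acaca, from base 1755: cagcccatTACACATgcagggtt
Hsd17b7, from base 78: ctgggtgaTACACATttgcagta
Hsd17b7, from base 2273: cagacaaaACACATAagaataaa
Elovl6, from base 1058: tcgacctcACACATAatcctggc
Elovl6, from base 1755: gattatacACACATAgccacgta
The fifth gene is Stard4. Lss alone in this set held the match to bases 2 to 8 followed by A. A match is a description of the letters, not evidence that the site is used.

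Promoter windows of 250 bases before to 50 after the start (RefSeq, GRCm38.p6) were found for 23 of the 29 genes. SREBP acts on promoters together with the factors NF-Y and Sp1, whose usual binding letters are CCAAT and GGGCGG. On either strand, CCAAT was present in 19 of the 23 genes, beside 41.1% of all 27025 genes with a window. The letters GGGCGG were also present in 19 of the 23, beside 38.2% of all genes. All genes here means every gene with a window, whether or not it was tested in these libraries, whereas the members with counts all were. A gene with several windows counted if any of them matched. By window, CCAAT was in 20 of 31 member windows, beside 37.4% of all 32851, and GGGCGG in 23 of 31, beside 35.7%. The strict sterol regulatory element TCACNCCAC was found in 1 of the 23, that of Hmgcs1, beside 1.44% of all genes, and the shorter CACNCCAC, which lies within it, in 3 of the 23, beside 7.12%. Many genuine sterol elements differ from these letters, so a window without a match says nothing about the factor. The 250 bases before 1 start each of Cyp51 and Pmvk are printed with CCAAT in capitals, because these genes differed between the sorted fractions. Neither stretch holds either form of the sterol element. Pmvk has a further window at another start, chr3:89459321-89459620, which is not printed and holds neither CCAAT nor a sterol element.
Cyp51, chr5:4104698-4104947, minus strand: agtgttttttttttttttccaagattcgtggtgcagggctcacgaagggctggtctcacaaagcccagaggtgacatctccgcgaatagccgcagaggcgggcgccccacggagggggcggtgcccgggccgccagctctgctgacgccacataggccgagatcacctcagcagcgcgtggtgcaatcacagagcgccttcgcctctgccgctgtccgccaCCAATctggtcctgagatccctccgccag
Pmvk, chr3:89454291-89454540, plus strand: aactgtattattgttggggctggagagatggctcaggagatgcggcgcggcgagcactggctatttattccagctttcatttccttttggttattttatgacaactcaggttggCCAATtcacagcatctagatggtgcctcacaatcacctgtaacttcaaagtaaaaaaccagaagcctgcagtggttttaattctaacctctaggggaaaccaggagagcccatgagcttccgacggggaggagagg

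Between 10824918 and 27890433 reads per library fell on genes. Levels are given as CPM, the reads of a gene per 1000000 counted reads after TMM scaling, which was done separately for the sorted and the overexpression libraries. The sort was visible in its own genes: Mrc1 stood at 3777 ± 279 CPM (SD, n = 3) in MRC1+ and 1615 ± 193 in CD11c+ TAMs, and Itgax, which encodes CD11c, at 102 ± 22.1 and 988 ± 56.2. Mir511, the gene of the hairpin, stood at 2.75 ± 0.336 CPM under miR-511-3p and 0.234 ± 0.138 under its mutated form. Each library held the 7 macrophage markers at a summed 6557 to 10109 CPM. Lyz2 led this sum, at 4846 ± 1023 CPM in MRC1+ and 4763 ± 769 in CD11c+ TAMs. Some of the other macrophage markers differed between the sorted fractions, as given below with the markers of other cells. The first CD11c+ library and the third mutated miR-511-3p library stood apart by fibroblast transcripts, with the values given beside the results they touch.

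Sterol and fatty acid synthesis genes were active in both sorted fractions. Per kilobase of exon, Scd2, a desaturase that makes monounsaturated fatty acids, had the highest level of the 28 genes, at 59.2 CPM per kilobase in MRC1+ and 66.0 in CD11c+ TAMs. The sterol sensor Insig1 came next at 28.5 and 32.2. The lowest was Tm7sf2, a sterol reductase, at 1.41 and 1.53. Its exons share 532 bases on the same strand with the neighbouring Vps51. Ambiguous reads, which fit more than 1 gene, were counted in a row of their own, so reads of that stretch may be missing from Tm7sf2. Exons of 10 of the 28 genes overlap those of another gene, in 5 cases a protein-coding one. For overlaps on opposite strands it cannot be told whether such reads were set apart, because the use of strand in counting is not stated. Fdft1 shares 774 bases with the opposite-strand gene Ctsb, Cyp51 166 bases with Akap9, Srebf1 109 bases with Rai1 and Fdps 1124 bases with a same-strand transcript.

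**Figure D1:**
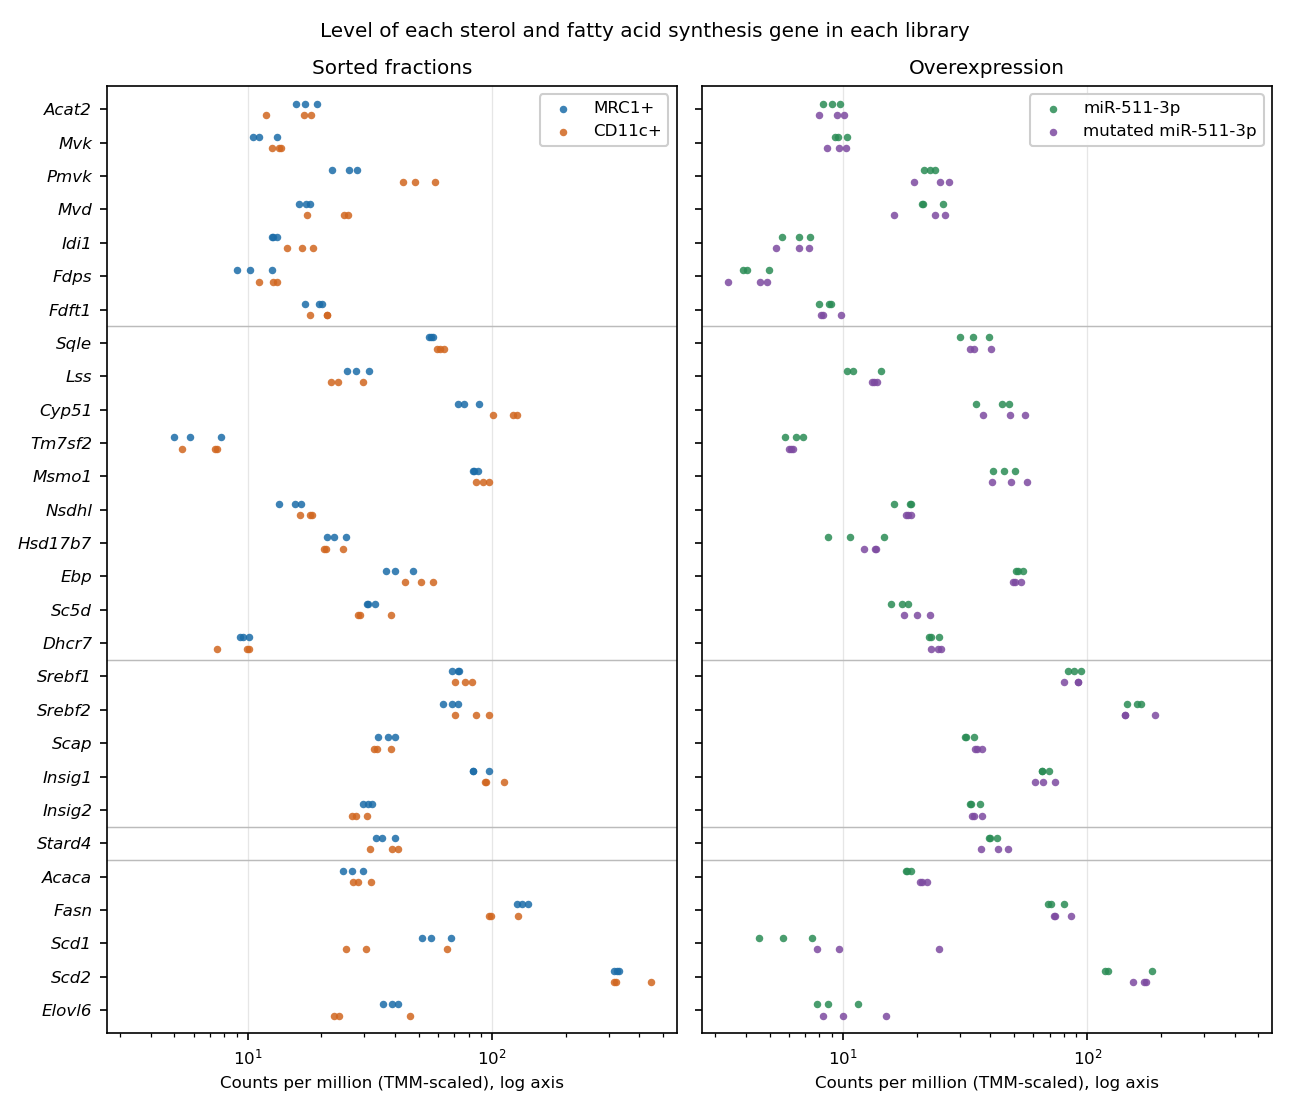
Each point is 1 library, with TMM-scaled CPM on a log axis and genes grouped by role from mevalonate enzymes at the top to fatty acid enzymes at the bottom; the left panel has the sorted fractions and the right panel the overexpression libraries, scaled separately. In the left panel Pmvk and Cyp51 show separate MRC1+ and CD11c+ points, while the CD11c+ points of Scd1 and Elovl6 fall into 1 high and 2 low libraries.

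The first comparison asks how MRC1+ and CD11c+ macrophages of this tumour type differ. Of the 28 genes, 2 were lower in MRC1+ TAMs, Pmvk and Cyp51, and 0 were higher (edgeR's quasi-likelihood test, Benjamini-Hochberg adjusted p below 0.05 over all 15622 genes tested). Over all genes, 16.6% passed, 9.71% lower and 6.91% higher in MRC1+ TAMs, so the share of this set, 2 of 28, was not above that of all genes. Upper-quartile scaling shifted the split over all genes from 1517 lower and 1080 higher to 1325 and 1348, and left the set at 2 lower. The median log2 fold change of the 28 genes, MRC1+ minus CD11c+, was -0.11, beside 0.01 for all genes; 19 lay below 0 and 9 above. Groups that did not overlap were found for 4 of the 28 genes, all lower in MRC1+ TAMs, beside 19.6% of all genes lower and 18.7% higher without overlap.

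Pmvk encodes phosphomevalonate kinase, which adds the second phosphate to mevalonate. It was at 28.0, 26.0 and 22.1 CPM in the 3 MRC1+ libraries and at 43.1, 48.4 and 58.1 in the 3 CD11c+ libraries. Every MRC1+ library lay below every CD11c+ library. Pmvk thus fell, with a log2 fold change of -0.97 ± 0.14 (SE; edgeR adjusted p = 0.00266), and the adjusted p lay between 0.000567 and 0.0133 when each of the 6 libraries was left out in turn.

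Cyp51 encodes lanosterol 14-demethylase, the first enzyme that trims lanosterol. It stood at 88.3, 76.7 and 72.2 CPM in MRC1+ and 126, 101 and 122 in CD11c+ TAMs, again with no overlap. This gave -0.55 ± 0.12 on the log2 scale (edgeR adjusted p = 0.0159). The call was lost in 3 of the 6 fits that left out 1 library: the adjusted p rose to 0.0713 without the second MRC1+ library, 0.0750 without the third and 0.0533 without the third CD11c+ library, while the fold change stayed between -0.65 and -0.49 under every alternative tried.

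Among the other mevalonate enzymes, Idi1, the isomerase of isopentenyl diphosphate, had 13.2, 12.5 and 12.7 CPM in MRC1+ and 18.5, 14.4 and 16.6 in CD11c+ libraries. These groups did not overlap, but the log2 fold change of -0.37 ± 0.13 did not pass (edgeR adjusted p = 0.0832). Mvd, the decarboxylase that yields isopentenyl diphosphate, had 16.2, 18.0 and 17.3 CPM against 17.5, 24.8 and 25.7, with overlap through the first CD11c+ library. Acat2, Mvk, Fdps and Fdft1 did not pass, with log2 fold changes from -0.21 to 0.16. Of the 7 mevalonate enzymes tested, 6 had values below 0, and their median was -0.21.

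Of the 10 enzymes from squalene to cholesterol, Cyp51 was the only one that passed with all 6 libraries, and the median was -0.11. Sqle, the oxygenase that opens this branch, had 55.2, 57.4 and 56.4 CPM in MRC1+ and 63.2, 60.9 and 59.3 in CD11c+ TAMs. Its groups did not overlap, but the difference was small, at -0.12 ± 0.08 on the log2 scale (edgeR adjusted p = 0.314). Msmo1, a sterol methyl oxidase and with Cyp51 the most counted gene of this branch, stood at 85.0 ± 1.98 in MRC1+ and 91.6 ± 5.73 in CD11c+ TAMs (SD, n = 3), and did not pass. Lss, Tm7sf2, Nsdhl, Hsd17b7, Ebp, Sc5d and Dhcr7 had log2 fold changes from -0.29 to 0.17 and did not pass either.

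None of the 5 regulators passed with all 6 libraries. Srebf2, the SREBP of sterol synthesis, had 63.0, 68.7 and 72.2 CPM in MRC1+ and 70.5, 85.6 and 97.1 in CD11c+ TAMs. The first CD11c+ library lay among the MRC1+ values, and the log2 fold change of -0.31 ± 0.12 did not pass (edgeR adjusted p = 0.123). Srebf1, the SREBP of fatty acid synthesis, had 72.7, 68.2 and 72.8 CPM against 70.5, 77.4 and 82.7. Insig1, itself an SREBP target, had 83.6, 83.8 and 96.7 against 93.4, 93.9 and 112. Both overlapped, as did Scap and Insig2, whose log2 fold changes were 0.08 and 0.13. The sterol carrier Stard4 stood at 36.4 ± 3.40 and 37.3 ± 5.03 CPM.

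**Figure D2:**
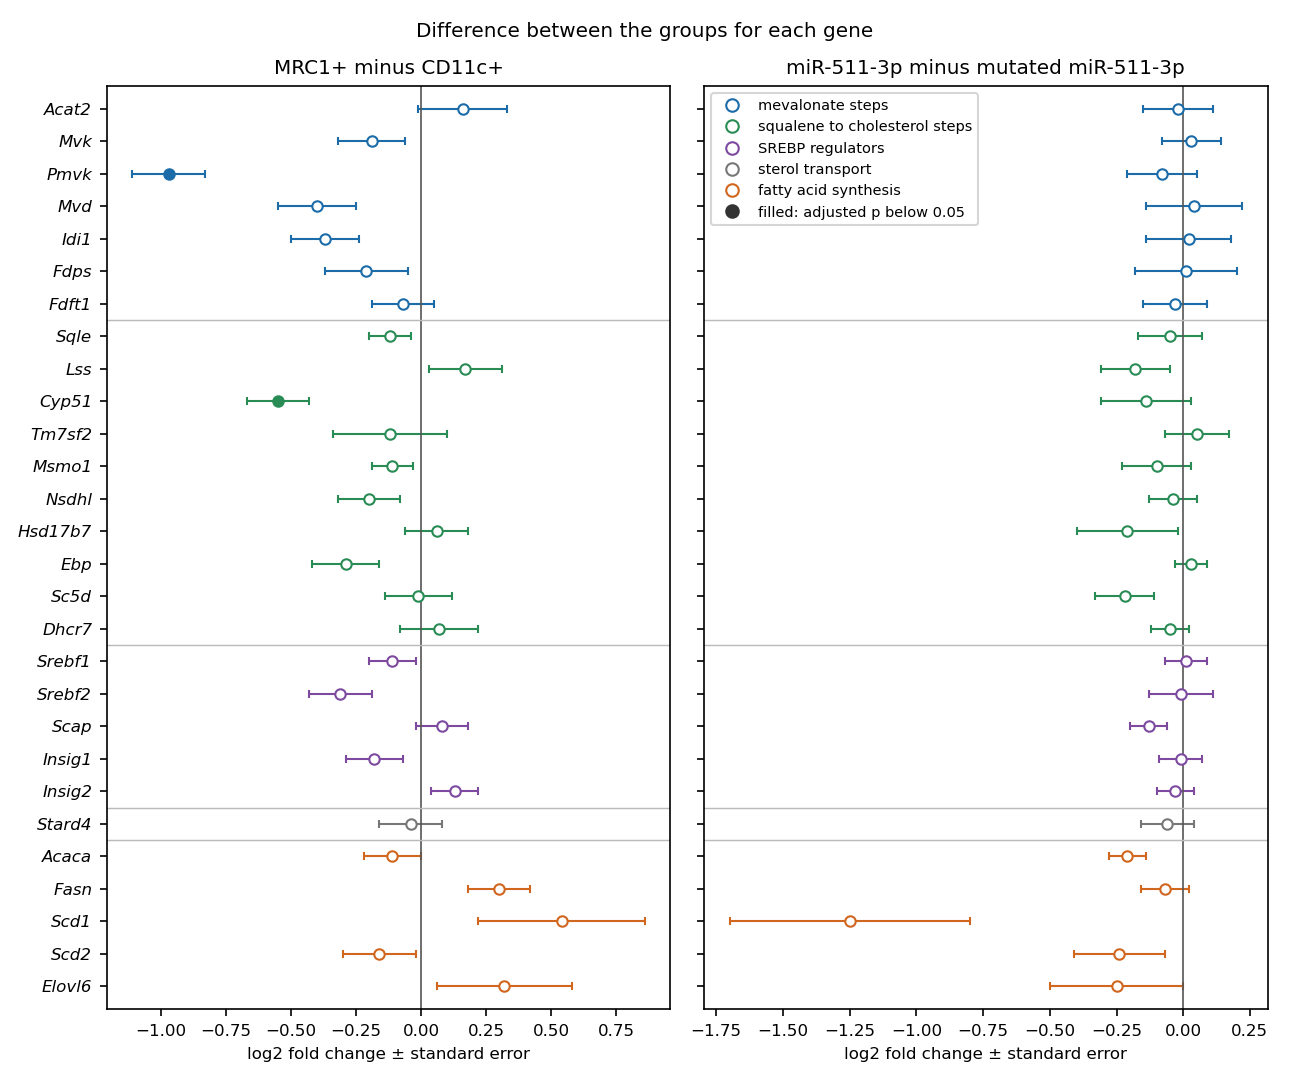
Points are log2 fold changes with their standard errors for the 28 genes, MRC1+ minus CD11c+ at the left and miR-511-3p minus mutated miR-511-3p at the right, on separate horizontal scales; filled points passed at an adjusted p below 0.05. Only Pmvk and Cyp51 are filled at the left, none is filled at the right, and Scd1 has the widest error in each panel.

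None of the 5 enzymes of fatty acid synthesis passed with all 6 libraries. Scd1, the second desaturase, had 51.5, 56.2 and 68.1 CPM in MRC1+ libraries and 65.2, 25.1 and 30.4 in CD11c+ libraries. The first CD11c+ library lay among the MRC1+ values and the others lay below all of them. The log2 fold change of 0.54 ± 0.32 did not pass (edgeR adjusted p = 0.281).

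Elovl6, which lengthens palmitate, had 38.9, 41.3 and 35.8 CPM in MRC1+ and 46.3, 22.6 and 23.6 in CD11c+ libraries. Fasn, the synthase that builds palmitate, had 126, 132 and 140 CPM against 128, 97.4 and 99.2. Both had the same layout as Scd1, with the first CD11c+ library high, and neither passed, with log2 fold changes of 0.32 ± 0.26 and 0.30 ± 0.12. Scd2 had 324, 330 and 316 CPM against 446, 316 and 320, and here the first CD11c+ library exceeded all others. Acaca, the carboxylase that makes malonyl-CoA, had 27.0 ± 2.57 and 29.1 ± 2.58 CPM (SD, n = 3).

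The first CD11c+ library was also the one with the most fibroblast transcripts. The 9 fibroblast markers, Col3a1 and Dcn among them, summed to 1199 CPM there; the remaining CD11c+ libraries had 273 and 331, and MRC1+ libraries had 625 to 875. None of the 9 was at 0 reads in any of these libraries, and 0 of 9 passed between the fractions in the fit of all 6 libraries. Adipocyte markers, which would mark a tissue rich in Scd1, summed to 1.37 to 3.22 CPM over 7 genes in the sorted libraries, with Adipoq at 0.305 CPM or less. Some other marker sums were also highest in the first CD11c+ library among the CD11c+ libraries. The 6 epithelial and carcinoma markers summed to 178 CPM there, against 139 and 124, and the 6 neutrophil markers to 151, against 91.7 and 126. Not every marker followed its sum. Csf3r had 25.0, 37.9 and 34.7 CPM in the 3 CD11c+ libraries, Mmp8 36.5, 40.2 and 54.6, and Cdh1 51.5, 59.8 and 65.6. These were lowest in the first library, and the other markers of both lists were highest there. In the MRC1+ libraries these lists summed to 150 to 219 and 79.2 to 99.9 CPM; of both lists, only Ly6g was at 0 reads in a sorted library, the third CD11c+ one. The part of fibroblast, carcinoma and neutrophil RNA in the levels of Scd1, Elovl6 and Fasn was not tested.

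**Figure D3:**
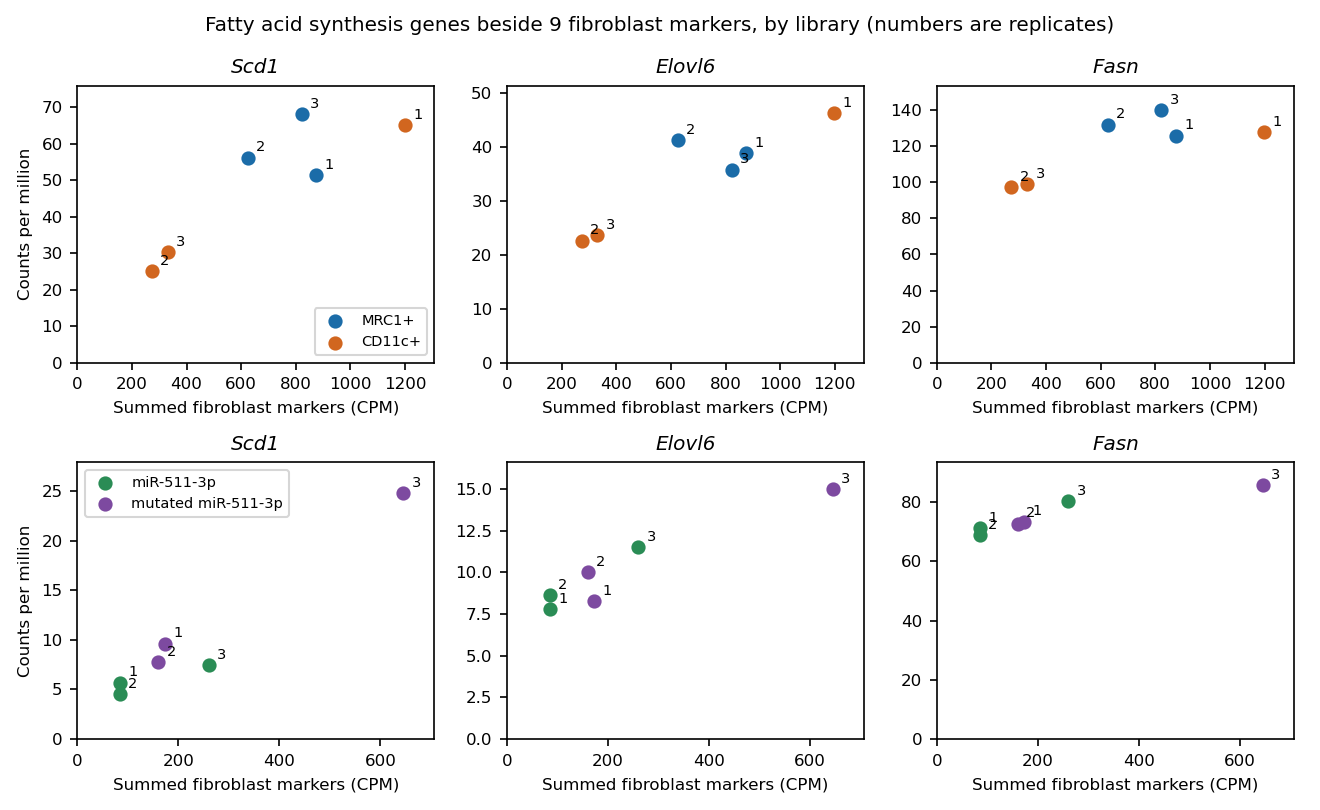
Each point is 1 library, labelled by its replicate number, with the summed CPM of 9 fibroblast markers on the horizontal axis and the CPM of Scd1, Elovl6 or Fasn on the vertical axis; sorted libraries are above and overexpression libraries below. The first CD11c+ library lies far right, at 1199 CPM of markers, and has Scd1 at 65.2 CPM, against 25.1 and 30.4 for the remaining CD11c+ points.

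Without the first CD11c+ library, 8 of the 28 genes passed, 3 higher and 5 lower in MRC1+ TAMs. Over all genes, 29.6% then passed, 14.8% higher and 14.8% lower, so the set again had a share near that of all genes. The genes that rose were Scd1, by 1.09 on the log2 scale (edgeR adjusted p = 0.000981), Elovl6, by 0.75 (0.00113), and Fasn, by 0.43 (0.00620). Those that fell, beside Pmvk and Cyp51, were Mvd at -0.56 (0.00474), Srebf2 at -0.43 (0.0117) and Ebp, the isomerase that shifts the double bond of zymosterol, at -0.39 (0.0424). All 3 higher genes act in fatty acid synthesis, and the 5 lower genes make sterols or encode their regulator. The split did not cover the whole fatty acid branch: Scd2 was at 0.02 on the log2 scale, and Acaca did not pass. Further SREBP targets, described below, went both ways in this fit. Acly at -0.41 and Elovl5 at -0.60 were among those lower, and Me1 at 1.74 was among those higher. This fit compares 3 libraries with 2. The 9 fibroblast markers summed to 625 to 875 CPM in its MRC1+ libraries and to 273 and 331 in its CD11c+ libraries. The part of fibroblast RNA and of dividing cells in these calls was not tested.

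**Figure D4:**
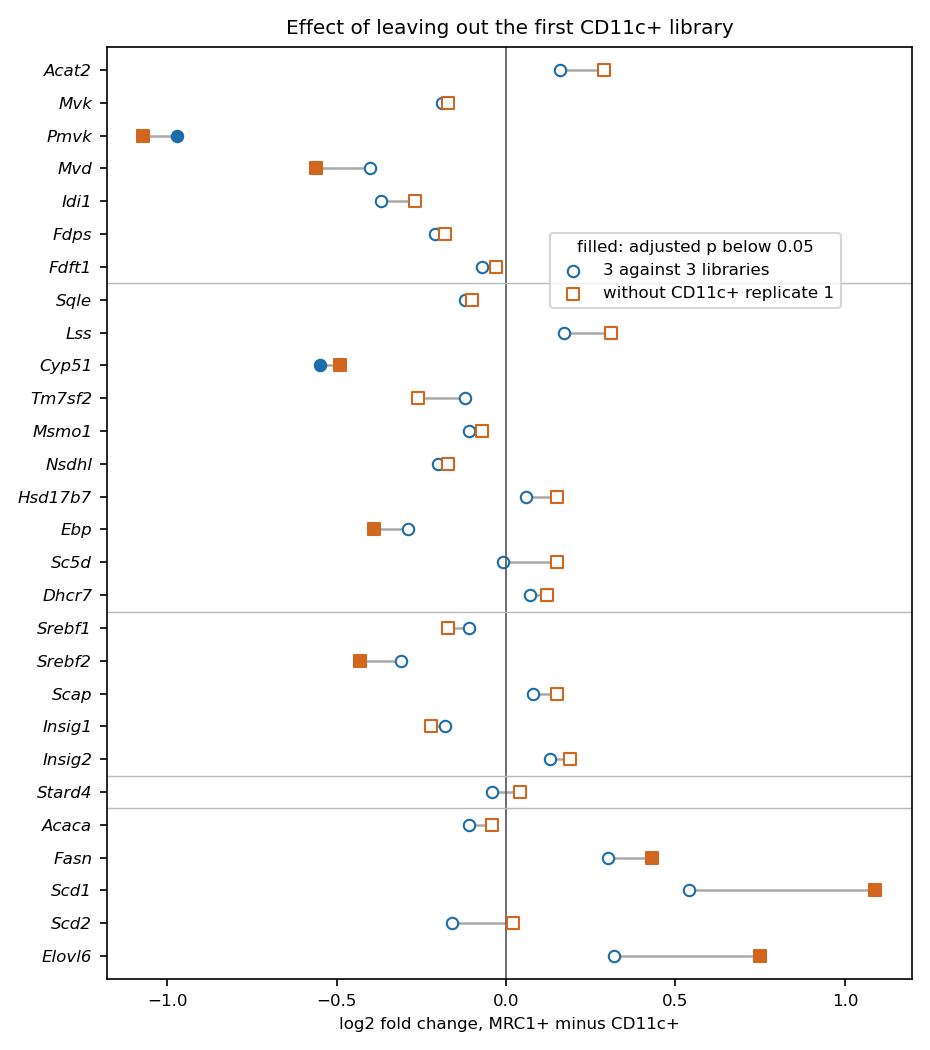
Circles are log2 fold changes, MRC1+ minus CD11c+, with all 6 libraries and squares those without the first CD11c+ library; filled symbols passed at an adjusted p below 0.05. Scd1 moves from 0.54 to 1.09 and Elovl6 from 0.32 to 0.75, while Pmvk and Cyp51 stay filled in both.

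Other genes of the pathway were taken from lists by function. Of 17 other SREBP targets, 14 could be tested; 2 fell and 0 rose in MRC1+ TAMs, beside the 9.71% of all genes that fell. They were Acly, which supplies cytosolic acetyl-CoA, at -0.37 ± 0.08 (edgeR adjusted p = 0.0206), and the elongase Elovl5 at -0.61 ± 0.12 (0.0134). Leaving out 1 library gave adjusted p of 0.00808 to 0.0962 for Acly, which passed only without the first CD11c+ library, and 0.0113 to 0.0597 for Elovl5, which missed without the second or the third MRC1+ library. Me1, malic enzyme, which supplies NADPH for fatty acid synthesis, had 5.10, 7.22 and 7.44 CPM against 5.33, 1.97 and 1.96. It has the layout of Scd1, and its log2 fold change was 1.06 ± 0.38 with all libraries (edgeR adjusted p = 0.0962; 0.0321 in DESeq2 and 0.0259 with no filter) and 1.74 without the first CD11c+ library (0.00147).

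Among 8 genes of SREBP processing and sterol-driven turnover, 1 fell, beside the 9.71% of all genes that fell. It was Erlin1, at -0.33 ± 0.09 (edgeR adjusted p = 0.0416). Blocking on replicate number gave 0.0525, upper-quartile scaling 0.0731 and no filter 0.0729, and of the fits that left out 1 library only the one without the first CD11c+ library kept the call. Among 16 genes of LXR and cholesterol handling, 5 rose and 1 fell, beside the 6.91% of all genes that rose and 9.71% that fell. Abca1, the main cholesterol exporter of macrophages, had 1319, 1344 and 1306 CPM in MRC1+ and 660, 779 and 717 in CD11c+ libraries, a log2 fold change of 0.88 ± 0.10 (edgeR adjusted p = 0.000867). Apoe, a lipid carrier, had 1345, 1163 and 1057 CPM against 514, 719 and 633. It rose by 0.93 ± 0.15 on the log2 scale (edgeR adjusted p = 0.00450).

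Ch25h, which makes 25-hydroxycholesterol, a sterol that blocks SREBP processing, had 22.3, 18.3 and 20.6 CPM in MRC1+ and 8.09, 8.64 and 8.75 in CD11c+ libraries. Its log2 fold change of 1.27 ± 0.12 was the largest of this list (edgeR adjusted p = 0.000398). For Ch25h, Abca1 and Apoe no MRC1+ library overlapped a CD11c+ library, and each passed under every alternative. Abcg1, the other main exporter, went the opposite way, with 193, 195 and 156 CPM against 243, 282 and 256. It fell, at -0.52 ± 0.11 on the log2 scale (edgeR adjusted p = 0.0177), and missed without the third MRC1+ library (0.0577), without the second CD11c+ library (0.0686) and in the fit of all 12 libraries (0.0530). Rxra, at 0.39 ± 0.11 (0.0446), and Npc1, at 0.30 ± 0.08 (0.0419), also rose; Npc1 gave 0.0545 when blocked on replicate number, 0.0649 with no filter and 0.0650 in the fit of all 12 libraries. Leaving out 1 library gave 0.0223 to 0.139 for Rxra, which missed without any 1 of the MRC1+ libraries or without the third CD11c+ library, and 0.0480 to 0.136 for Npc1, which passed only without the first CD11c+ library.

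Markers of macrophages and of other cells also differed between the fractions. Of 7 macrophage markers, 2 were higher in MRC1+ TAMs, beside 6.91% of all genes, and 0 were lower. They were Adgre1, at 0.80 ± 0.14 on the log2 scale (edgeR adjusted p = 0.00733), and Mertk, at 0.54 ± 0.13 (0.027). Of 11 dendritic cell markers, 10 were lower in MRC1+ TAMs, beside 9.71% of all genes; they summed to 53.3 to 56.0 CPM there and to 420 to 745 in CD11c+ TAMs, and none was at 0 reads. Of 10 cell cycle genes, 4 were higher in MRC1+ TAMs, beside 6.91% of all genes, and they summed to 1260 to 1310 CPM there, against 984 to 1207. Of 6 epithelial and carcinoma markers, 4 were higher and 2 were lower; the 6 summed to 150 to 219 CPM, against 124 to 178. Of 4 endothelial markers tested, 3 were lower and 1 was higher; the 6 listed summed to 37.7 to 47.2 CPM, against 90.8 to 136. The T and NK cell list had 2 of 7 tested genes lower and the neutrophil list 1 of 5. Among mitochondrially encoded genes, a sign of RNA quality, 2 of 7 were higher. Each of these counts stands beside the 9.71% of all genes that were lower and the 6.91% that were higher. The part of macrophage content, of these other cells, of dividing cells and of RNA quality was not tested. This holds for the levels of Pmvk and Cyp51 and for those of Abca1, Apoe and Ch25h. In bulk RNA, fewer cells of a type and less RNA per cell cannot be told apart.

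The second comparison asks what overexpressed miR-511-3p changes against its mutated form. None of the 28 genes passed, and over all 14054 genes tested 0% passed (edgeR's quasi-likelihood test, Benjamini-Hochberg adjustment). At an unadjusted p under 0.05 there were 343 genes, 2 of them in this set. DESeq2 and a fit of all 12 libraries each called 1 gene, Mir511 itself, and blocking on replicate number called 1 gene outside the set, Hspg2, a matrix proteoglycan. The median log2 fold change of the 28 genes, miR-511-3p minus mutated, was -0.05, beside 0.00 for all genes, with 21 below 0 and 7 above. Groups that did not overlap were found for 3 of the 28, all lower under miR-511-3p, beside 3.59% of all genes lower and 2.79% higher.

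Acaca was at 18.9, 18.1 and 18.2 CPM under miR-511-3p and 21.1, 22.0 and 20.6 under the mutated form. The groups were narrow and did not overlap. Its difference of -0.21 ± 0.07 on the log2 scale had an unadjusted p of 0.0174 and an adjusted p of 1 in edgeR, so it did not pass; it was between -0.23 and -0.18 under every alternative. Acaca holds 2 of the seed matches printed above.

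Scd1 was at 5.70, 4.51 and 7.48 CPM under miR-511-3p and 9.63, 7.79 and 24.8 under the mutated form. The third mutated library was far above the rest, and the other mutated libraries lay just above the miR-511-3p libraries, with no overlap. Scd1 differed by -1.25 ± 0.45 on the log2 scale, with an unadjusted p of 0.0262 and an adjusted p of 1 in edgeR, and the value was -0.56 without the third mutated library. That library also had the most fibroblast transcripts: the 9 markers summed to 645 CPM, against 173 and 160 in the other mutated libraries and 85.0, 84.5 and 260 in the miR-511-3p libraries. None of the 9 was at 0 reads, 0 of 9 passed, and adipocyte markers summed to at most 1.11 CPM. Some other cell markers, though not all, were also highest in that library. Neutrophil markers summed to 142 CPM there and 66.5 to 89.3 in the other 5 libraries, carcinoma markers to 45.4 against 17.6 to 29.6, and T and NK cell markers to 31.5 against 8.88 to 23.8. Single markers did not all follow these sums. Mmp8 had 5.34 CPM in the third mutated library and 13.9 in the first, and Cd4 had 15.1 in the third and 21.6 in the second. Endothelial markers, at 47.2 in the third mutated library, reached 98.0 in the first. B cell markers, at 13.2, and dendritic cell markers, at 42.7, were also highest elsewhere, at 17.3 and 50.9. The part of RNA from these cells in Scd1 was not tested.

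Scap, the SREBP escort, was the last of the 3 genes without overlap, at 31.8, 31.4 and 34.3 CPM under miR-511-3p and 37.1, 35.2 and 34.6 under the mutated form. Its log2 fold change was -0.13 ± 0.07 (adjusted p of 1 in edgeR). Elovl6, which has 2 seed matches, stood at 7.79, 8.65 and 11.5 CPM against 8.28, 10.0 and 15.0, with overlap. Its log2 fold change of -0.25 ± 0.25 became 0.03 without the third mutated library.

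Lss, with the longest seed match of the set, had 14.3, 10.4 and 11.0 CPM under miR-511-3p and 13.1, 13.4 and 13.8 under the mutated form. The first miR-511-3p library exceeded all mutated ones. The log2 fold change of -0.18 ± 0.13 did not pass, nor did that of Hsd17b7, at -0.21 ± 0.19, or of Stard4, at -0.06 ± 0.10. The 5 genes with a site had a median log2 fold change of -0.21 and the others one of -0.03, beside -0.02 and 0.01 over all genes with and without a site. This difference was not tested. Over the alternatives Hsd17b7 ran from -0.44 to -0.05, Lss from -0.33 to -0.09, Elovl6 from -0.44 to 0.03 and Stard4 from -0.15 to 0.03.

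The genes that differed between the sorted fractions did not pass in this comparison. Pmvk stood at 22.6 ± 1.10 and 23.9 ± 3.97 CPM (SD, n = 3) and Cyp51 at 42.5 ± 6.58 and 47.0 ± 9.14. Srebf2 stood at 157 ± 10.9 and 158 ± 26.6, Srebf1 at 88.6 ± 5.59 and 88.0 ± 6.48, and Insig1 at 66.6 ± 2.52 and 66.8 ± 6.44. In each of these 5 genes the means differed by less than the SD of the mutated group. The median log2 fold change was 0.01 for the mevalonate enzymes, -0.07 for those from squalene to cholesterol, -0.01 for the regulators and -0.24 for fatty acid synthesis, whose 5 genes were all below 0. No gene of the further pathway lists passed.

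The level of the sterol enzymes against their own group was also read library by library. For each gene the mean log2 CPM of its group was subtracted, and the 17 cholesterol enzymes tested were then counted. Under the mutated miR-511-3p, 2 of 17 lay above their group mean in the first library, 15 in the second and 12 in the third, with median deviations of -0.12, 0.07 and 0.04. Under miR-511-3p the counts were 15, 2 and 7 of 17, with medians of 0.10, -0.12 and -0.01.

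In the sorted fractions the cholesterol enzymes had medians from -0.08 to 0.14, with 13 of 17 above the mean in the first MRC1+ library and 3 of 17 in the third. Fatty acid genes deviated most in the first CD11c+ library, where 5 of 5 lay above their group mean by a median of 0.33, against -0.17 and -0.15 in the others.

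**Figure D5:**
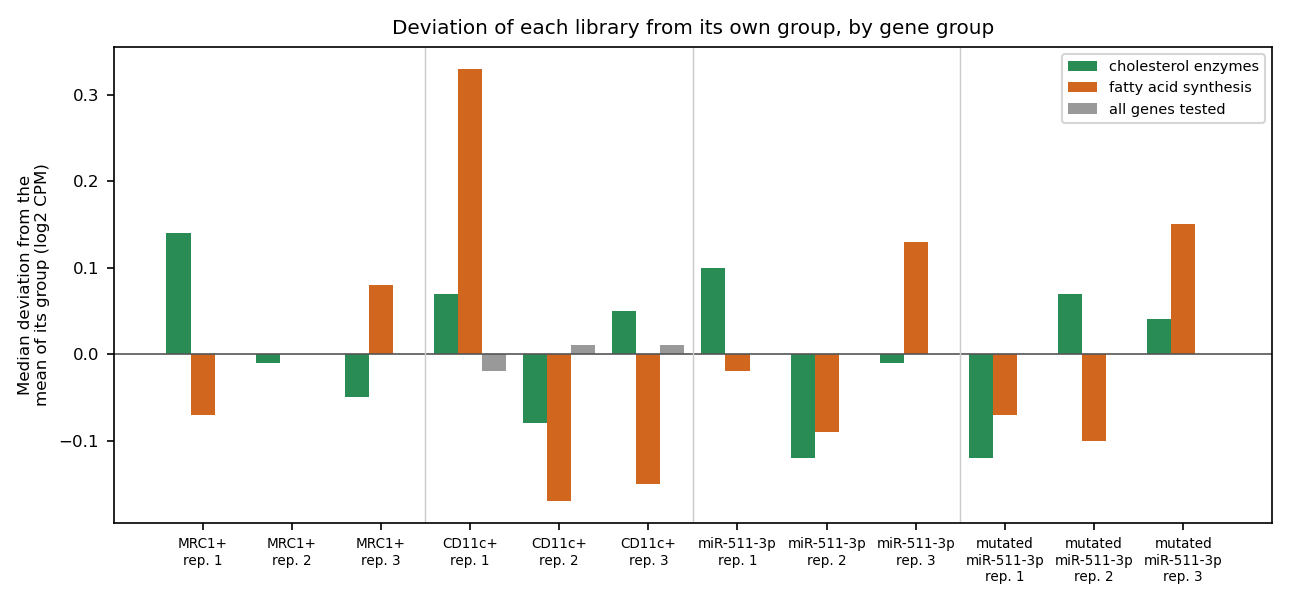
Bars are the median deviation of log2 CPM from the mean of the same group, for the 17 cholesterol enzymes, the 5 fatty acid genes and all genes tested, in each of the 12 libraries. The first CD11c+ library has the tallest bar, 0.33 for fatty acid synthesis, and the cholesterol enzymes range from -0.12 to 0.10 among the miR-511-3p libraries. Scaling holds the bars of all genes near 0.

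Set side by side, levels in the sorted and the overexpression libraries differed for most of these genes, although the libraries were scaled separately, come from separate experiments and were not compared by a test. For 17 of 28 genes all 6 overexpression libraries lay below all 6 sorted ones, for 3 they lay above and for 8 they overlapped. Lower were Scd2, at 118 to 183 CPM against 316 to 446, Scd1, at 4.51 to 24.8 against 25.1 to 68.1, and Cyp51, at 35.1 to 55.4 against 72.2 to 126. Higher were Srebf2, at 143 to 189 CPM against 63.0 to 97.1, Dhcr7, the last reductase of the pathway, at 22.4 to 25.1 against 7.51 to 10.1, and Insig2, at 33.0 to 37.0 against 26.7 to 32.2. Srebf1 overlapped, at 80.5 to 94.4 against 68.2 to 82.7. The library sets also differed in the share of reads over no gene, 19.7% to 26.6% in the sorted and 7.64% to 10.4% in the overexpression libraries, so experiment, preparation and cell type cannot be told apart here.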

How the data were processed

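The authors deposited 1 table of raw whole-number read counts per Ensembl gene for each library. Per the submitters' processing notes, the tools were HTSeq, SAMtools 0.1.12a, TopHat 1.2.0 and Bowtie and the mouse build was mm9. No source used here says how strand was used in counting or which rule was set for overlaps. Rows that name no gene were left out: reads over no gene were 7.64% to 26.6%, reads with several alignments 12.8% to 20.1% and ambiguous reads 1.76% to 2.49% of each library. Symbols, exon lengths and 3′ UTRs came from GENCODE M21 (GRCm38), which is newer than mm9, and coordinates of the counted genes are left out for that reason.

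Each comparison was fitted on its 6 libraries with the quasi-likelihood test of edgeR 4.0.16 (R 4.3.3; TMM scaling, filterByExpr, Benjamini-Hochberg adjustment over all genes, threshold 0.05), and tested on simulated data. CPM used the TMM factors, and log2 CPM a prior count of 2. A level at this depth rests on at least 289 reads per group for the least abundant gene of the sorted fractions (Tm7sf2). Alternatives were DESeq2 1.42.0, upper-quartile scaling, no filter, a filter of 5 CPM in 3 libraries, a fit of all 12 libraries, a replicate block and each library left out.

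Same-numbered libraries deviated together across genes, with correlations of 0.104, 0.337 and 0.250 in the sorted and 0.147, 0.258 and 0.462 in the overexpression groups, all above 0.1. Not every library matched its own number best: miR-511-3p library 1 had a correlation of 0.166 with mutated library 2, against 0.147 with its own number. The labels do not state a pairing; every value is from the fit without a block unless a block is named, and the block was run as an alternative.

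The 29 genes were given as a list, and the role, pathway and marker lists and the tests were chosen with earlier results of these data known. Named genes were all members, by library where they passed, did not overlap between groups or had the highest level of their role, and up to 4 genes of lowest p in each pathway list, except that a few pathway genes and the list of further sterol and isoprenoid genes are not reported here. Scd1, Elovl6, Fasn, Mvd, Ebp, Srebf2 and Me1 were described further after their values were seen.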

Additional observations from a re-analysis of the deposited data

How the results depend on the processing

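Pmvk kept its call under every alternative tried, and Cyp51 under all but the 3 fits named beside it. Leaving out 1 library gave 1270 to 4707 called genes and 1 to 8 called members between MRC1+ and CD11c+ TAMs; the upper value of each is the fit without the first CD11c+ library. DESeq2 (2968 genes), upper-quartile scaling (2673), no filter (3183), the filter of 5 CPM (2292), the fit of all 12 libraries (3325) and the replicate block (2788) each called 2 members. The replicate block changed no member's call in either comparison, and among other named genes it ended those of Erlin1 and Npc1. Under miR-511-3p, DESeq2, the replicate block and the fit of all 12 libraries each called 1 gene in place of 0, and no alternative called a member. Uncalled members changed sign 12 times between the sorted fractions and 31 times under miR-511-3p, over all alternatives. No setting moved the median of all genes by more than 0.06 on the log2 scale. The median level of the members in MRC1+ TAMs was 31.6 CPM, and 33.0 without TMM factors. The shorter sterol element was found in 3 genes in place of 1, and a seed match of 6 bases in 11 members in place of 5.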
